A study of Homo sapiens with 10 samples.

Results

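The RNA of extracellular vesicles pelleted at the 100K spin (EV 100K, 3 libraries) was compared with that of vesicles pelleted at the 10K spin (EV 10K, 3 libraries), which are 6 of the 10 libraries of the study. The libraries were chosen by their titles, and the tests ran over all genes with enough counts in these 6. The other 4 libraries, 3 of vesicles from a 2.8K spin and 1 of whole cells, serve as context only. All vesicles came from PC3, an established line isolated from a bone metastasis of a human prostate carcinoma, grown in DMEM with fetal bovine serum, glutamine and antibiotics. The 2 groups share cell line, medium and library kit (a SMARTer stranded total RNA kit), no treatment is named for either, and the spin is their labelled difference. The labels give spins with no unit and do not say whether the 100K pellet was taken from the medium left by the slower spins. Since 1 line was used, each group describes PC3 alone.

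Extracellular vesicles (EVs) are membrane-bound particles that cells release. Successive spins of rising speed collect first large particles, such as vesicles shed from the plasma membrane and fragments of dividing or dying cells, and then small ones, among them exosomes, which form inside endosomes and leave when these fuse with the plasma membrane. Both kinds carry RNA from the cytoplasm, and pellets can also hold RNA in protein complexes and lipoproteins that sediment with vesicles.

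The EV 100K libraries held 5424964 to 8083438 counts and the EV 10K libraries 7933251 to 10864958. The EV 100K libraries were more alike, with Spearman correlations across tested genes of 0.964 to 0.965 between them, against 0.903 to 0.921 between EV 10K libraries and 0.862 to 0.892 across the groups. Between libraries of a group, biological variation (edgeR's coefficient) came to 0.251 for EV 100K but 0.622 for EV 10K. The sources used here do not say whether the numbered sets were separate cultures, and they are called replicate or library 1 to 3 below, so p-values measure only how far these libraries spread, and that spread may be technical. Keratins and vimentin, the identity genes of PC3, were present in all 6 libraries, while the prostate secretory genes KLK3 and KLK2, which this androgen-independent line is known to lack, had no count. Of 6 leukocyte markers 4 were at 0 in all 6 libraries, and the summed level of the list was 0 to 1.05 CPM in EV 100K and 0 to 6.71 CPM in EV 10K, where CPM is the count scaled to a common library total after TMM scaling. The highest value, in EV 10K replicate 1, came from CD14 (32 counts) and ITGAM (30 counts). Of 8 blood and serum markers 4 were at 0, with sums of 0.304 to 3.42 CPM in EV 100K and 2.38 to 5.02 CPM in EV 10K. Fibroblast markers summed to 6.996 to 12.5 and 4.38 to 6.93 CPM, with DCN and LUM at 0.

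The pellets differed in many genes, and the differences toward lower levels in EV 100K were the larger ones. Of 13911 genes tested, edgeR's quasi-likelihood test called 2777 at a Benjamini-Hochberg adjusted p below 0.05 (19.96%), of which 1199 were higher (8.62%) and 1578 lower (11.3%) in EV 100K. These percentages are the background against which the gene groups below can be read. The median log2 fold change (EV 100K over EV 10K) was -0.003 over all genes tested, 1.02 among genes called higher and -1.28 among genes called lower. At least 4-fold changes numbered 79 higher and 211 lower, and the libraries of the 2 groups did not overlap for 5305 of the 13911 genes tested (38.1%), 2741 of them among the 2777 called. Counts fell to 1726 (703 higher, 1023 lower) without EV 100K replicate 1 and to 1695 (658 and 1037) without EV 100K replicate 3, and without EV 100K replicate 2 there were 783 higher genes. A fit that also held the 3 EV 2.8K libraries called 1697 genes, 575 higher and 1122 lower, and 1684 of these were among the 2777. A level here is a share of a library, so fewer vesicles of a kind and less RNA per vesicle cannot be told apart.

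**Figure D1:**
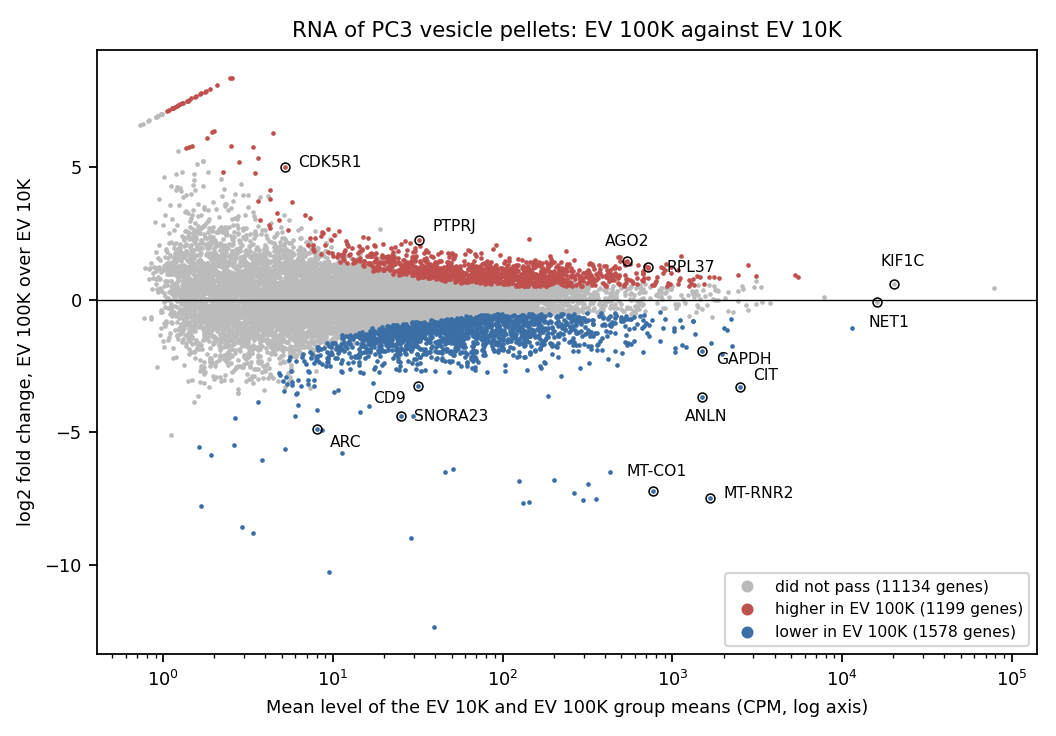
Each point is 1 of 13911 genes, with the mean of the 2 group means in CPM on a log axis and the fitted log2 fold change of EV 100K over EV 10K on the vertical axis; red and blue points passed the test. Mitochondrial RNAs form the lowest group, ANLN and CIT are abundant and low, and NET1 and KIF1C lie near 0; 26 genes called higher had no count in EV 10K and 5 called lower had none in EV 100K, and their plotted values depend on the prior count.

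The 12 lowest ratios were taken outside the mitochondrial genome, at 10 CPM or more in EV 10K, without catalogue entries, clone names and pseudogenes. Of these 12 genes, 7 were small RNAs of the nucleus. Box H/ACA and box C/D small nucleolar RNAs (snoRNAs) guide pseudouridylation and 2′-O-methylation of other RNAs, and their relatives in Cajal bodies (scaRNAs) guide the modification of spliceosomal RNAs; both normally stay in the nucleus. Of 29 snoRNA and scaRNA genes tested, 10 fell and 1, a copy of U3, rose, and their median was -1.46 on the log2 scale. Sorted by name after the values were seen, all 3 SCARNA genes and 6 of 13 SNORA genes (H/ACA) fell, against 1 of 12 SNORD genes (C/D). The sequences of 4 genes that fell follow, from GENCODE release 29 transcripts on GRCh38, shown because they carry the lowest ratios among snoRNA and scaRNA genes with at least 10 CPM in EV 10K and let a reader see their ACA box.
SNORA23: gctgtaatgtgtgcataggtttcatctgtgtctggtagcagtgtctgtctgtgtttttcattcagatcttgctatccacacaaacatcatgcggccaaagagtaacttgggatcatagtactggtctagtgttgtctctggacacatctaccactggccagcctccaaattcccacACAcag
SNORA12: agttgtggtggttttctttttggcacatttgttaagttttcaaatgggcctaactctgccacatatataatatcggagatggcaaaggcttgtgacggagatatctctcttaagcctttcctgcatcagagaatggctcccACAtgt
SCARNA21: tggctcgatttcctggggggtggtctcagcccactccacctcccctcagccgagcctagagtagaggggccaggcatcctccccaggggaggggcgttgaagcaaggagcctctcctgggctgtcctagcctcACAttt
SCARNA22: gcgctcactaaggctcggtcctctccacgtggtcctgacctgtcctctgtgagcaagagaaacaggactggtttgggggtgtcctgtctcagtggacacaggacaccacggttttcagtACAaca
Capitals mark ACA when it stands 3 bases before the 3′ end, as in H/ACA RNAs. Only the transcribed strand was searched. Of 1004 snoRNA and scaRNA transcripts in this annotation, 30.6% hold ACA at that place. The genes lie at chr11:9428773-9428954, plus strand (SNORA23), chr10:100237156-100237302, minus strand (SNORA12), chr17:7906122-7906260, plus strand (SCARNA21) and chr4:1974636-1974760, plus strand (SCARNA22).

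SNORA23, an H/ACA RNA, was at 1.32, 3.16 and 2.43 CPM across EV 100K and 58.4, 55.8 and 29.6 CPM across EV 10K. Every EV 100K library lay below every EV 10K library, and the gene fell 20.99-fold (log2 fold change -4.39, SE 0.44, edgeR adjusted p = 3.73e-05). SCARNA21 was at 3.29, 2.98 and 1.67 CPM across EV 100K and 49.1, 63.2 and 56.7 CPM across EV 10K, again with no overlap between the groups (log2 fold change -4.40, SE 0.35, edgeR adjusted p = 6.96e-06). SCARNA6 fell by 3.99 on the log2 scale (SE 0.49). SNORA12 had 10 counts in EV 100K against 322 in EV 10K (-4.38, SE 0.97) and SCARNA22 had 4 against 283 (-5.63, SE 1.21), so the size of their fall is poorly fixed. SNORA12 ranged from -3.76 without EV 100K replicate 1 to -5.21 without EV 100K replicate 2, and SCARNA22 was at -4.87 without EV 10K replicate 1. All 4 EV 100K counts of SCARNA22 were in replicate 1. These genes lie within introns of host genes, and reads of an unspliced host and of the small RNA cannot be told apart in these counts, since the sources used here give neither strand nor overlap settings. Of 15 snoRNA host transcripts tested, which hold introns with snoRNAs, 0 fell in edgeR and 1, SNHG16, rose (0.92, SE 0.18), with a list median of -0.01. Hosts were not matched to the snoRNA and scaRNA genes named above, so this list says nothing of host reads among them.

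U1 small nuclear RNA pairs with the 5′ splice site of pre-mRNA. Of 19 U1-type genes tested, 2 rose, 5 fell and 12 did not pass, and their median was 0.35. Over all genes tested 8.62% rose and 11.3% fell, so the 2 higher U1-type genes are near the share of all genes. The variant genes RNVU1-28 and RNVU1-7 fell while RNVU1-27 and RNVU1-19 rose; all but RNVU1-28 were chosen after their values were seen. The other 3 that fell were RNVU1-31, RNU1-27P and RNU1-28P. The sequences of the first 4 are shown because they are close to one another while their levels went opposite ways.
RNVU1-28: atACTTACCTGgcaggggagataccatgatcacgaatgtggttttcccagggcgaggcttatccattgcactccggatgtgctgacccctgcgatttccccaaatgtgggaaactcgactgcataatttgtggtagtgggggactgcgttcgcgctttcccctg
RNVU1-7: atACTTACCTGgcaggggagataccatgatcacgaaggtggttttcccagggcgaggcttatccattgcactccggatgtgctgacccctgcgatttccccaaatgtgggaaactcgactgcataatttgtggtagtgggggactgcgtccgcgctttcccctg
RNVU1-27: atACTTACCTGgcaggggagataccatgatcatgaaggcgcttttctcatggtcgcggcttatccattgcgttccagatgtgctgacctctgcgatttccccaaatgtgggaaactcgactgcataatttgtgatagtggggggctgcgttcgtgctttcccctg
RNVU1-19: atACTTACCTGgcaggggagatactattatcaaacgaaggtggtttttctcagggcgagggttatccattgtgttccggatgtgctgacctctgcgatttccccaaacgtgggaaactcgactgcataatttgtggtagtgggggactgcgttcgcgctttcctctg
Capitals mark ACTTACCTG near the 5′ end, the stretch that pairs with the splice site; 2.63% of 1900 snRNA transcripts in GENCODE release 29 hold these letters within their first 20 bases. In global alignments RNVU1-28 and RNVU1-7 were 98.8% identical, while each was 90.9% identical to RNVU1-27 and 91.6% to RNVU1-19. They lie on chromosome 1 of GRCh38 at chr1:144560666-144560829, minus strand (RNVU1-28), chr1:148038753-148038916, minus strand (RNVU1-7), chr1:148522601-148522765, plus strand (RNVU1-27) and chr1:120850819-120850985, minus strand (RNVU1-19). RNVU1-28 was at 0.658, 0.351 and 0.608 CPM across EV 100K and 31.3, 13.1 and 6.02 CPM across EV 10K (log2 fold change -4.90, SE 0.78, edgeR adjusted p = 0.000797). RNVU1-27 was at 764, 486 and 470.4 CPM across EV 100K and 353, 345 and 192 CPM across EV 10K (log2 fold change 0.95, SE 0.25, edgeR adjusted p = 0.0151). The groups did not overlap for either gene, and RNVU1-27 was the more abundant of them in every library. RNVU1-28 changed by -4.08 without EV 10K replicate 1, its highest library. RNVU1-7, at -3.54 (SE 1.06), had 0 counts in EV 100K replicate 2. RNVU1-7 changed by -2.68 without EV 10K replicate 1 and -4.13 without EV 100K replicate 1, and it was no longer called without EV 100K library 1, 2 or 3, or EV 10K library 1 or 2 (adjusted p = 0.0606 to 0.141) in edgeR. RNVU1-27 was no longer called without EV 100K library 1, or EV 10K library 3 and in the fit on 9 EV libraries (adjusted p = 0.059 to 0.108), and RNVU1-19, at 1.12 (SE 0.35), was no longer called without EV 100K library 1, 2 or 3, or EV 10K library 2 or 3 and in the fit on 9 EV libraries and the fit on 10 libraries (adjusted p = 0.0551 to 0.477), each in edgeR. The annotation holds many near-identical U1 copies, and since the sources used here do not say how reads that fit several copies were counted, which copy a read came from is uncertain.

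**Figure D2:**
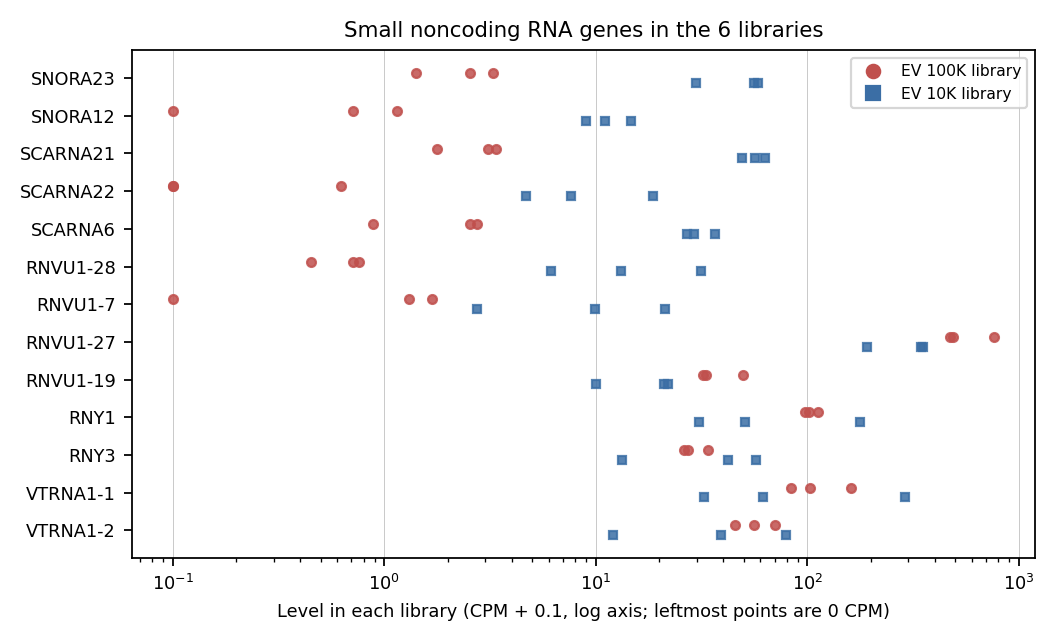
Each point is the level of a small noncoding RNA gene in 1 library, as CPM plus 0.1 on a log axis, with EV 100K libraries as red circles and EV 10K libraries as blue squares. The snoRNA and scaRNA genes lie to the left in EV 100K without overlap, RNVU1-27 and RNVU1-19 lie to the right, and the Y and vault RNAs overlap, with EV 10K replicate 1 high.

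Y RNAs and vault RNAs are short RNA polymerase III transcripts that bind Ro60 and the vault particle and are often found in vesicles. Of the 4 tested, 0 passed in edgeR, DESeq2 or limma voom, and 0 had an unadjusted p below 0.05 in edgeR. RNY1 was at 112, 101 and 97.0 CPM across EV 100K and 177, 50.7 and 30.7 CPM across EV 10K, so EV 10K replicate 1 lay above all EV 100K libraries and replicates 2 and 3 below them. VTRNA1-1 had the same order, at 103, 159.9 and 83.5 CPM across EV 100K and 291, 61.9 and 32.4 CPM across EV 10K. Their log2 fold changes were 0.26 (SE 0.45) and -0.15 (SE 0.57), with edgeR adjusted p of 0.759 and 0.897. Without EV 10K replicate 1 both were higher in EV 100K, at 1.36 (edgeR adjusted p = 0.00192) and 1.31 (0.0112), so 1 library decides these values. RN7SK, RN7SL1, RNY4, RMRP and RPPH1 had no count in any of the 10 libraries, whole cells included. The sources used here do not give the counting settings. Absence of these RNAs and loss in library preparation or counting cannot be told apart.

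Mitochondrial RNA was nearly absent from EV 100K. The 13 mitochondrial mRNAs, which encode subunits of the respiratory chain, had 840 counts in EV 100K and 157420 in EV 10K, and all 13 fell. Their median log2 fold change was -6.94, between -7.15 and -6.29 in the 9 pairings of an EV 100K with an EV 10K library. MT-ND4, a complex I subunit, was at 7.24, 11.1 and 9.89 CPM across EV 100K and 766, 892 and 888 CPM across EV 10K (log2 fold change -6.50, SE 0.22, edgeR adjusted p = 1.43e-09). The 16S ribosomal RNA MT-RNR2 was at 17.9, 15.4 and 23.1 CPM across EV 100K and 4709.6, 3000.1 and 2198 CPM across EV 10K (log2 fold change -7.45, SE 0.33, edgeR adjusted p = 9.87e-09). MT-ND6 had 0 counts in EV 100K against 532 in EV 10K, which is at least 125-fold lower when 3 counts over the EV 100K group are taken as the floor. MTRNR2L8, a nuclear gene that copies part of MT-RNR2, had 0 counts against 2203 and was at least 524-fold lower by the same floor; EV 10K replicate 1 was at 187 CPM and replicates 2 and 3 at 27.5 and 22.4 CPM. Reads of MT-RNR2 and of this copy may be shared, and the sources used here do not say how they were counted.

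Nuclear genes for mitochondrial proteins were lower too, by far less. Of 77 respiratory chain genes of the nucleus, 43 fell and 2 rose, with a median log2 fold change of -1.06 (-1.12 to -0.74 over the 9 library pairs). COX6C, a cytochrome c oxidase subunit, was at 209.8, 171 and 186 CPM across EV 100K and 483, 621 and 573 CPM across EV 10K (log2 fold change -1.56, SE 0.16, edgeR adjusted p = 5.07e-05). All EV 100K libraries lay below all EV 10K libraries. The complex I subunits NDUFB7 and NDUFB10 fell by 1.65 and 1.62 on the log2 scale (SE 0.17 each). Against them NDUFAB1, the mitochondrial acyl carrier protein, rose, at 800.1, 646 and 566 CPM across EV 100K and 433, 413 and 327 CPM across EV 10K (log2 fold change 0.78, SE 0.18, edgeR adjusted p = 0.00769). Higher genes of this list numbered 1 without EV 100K library 1 or 2 and 1 without EV 10K library 2 or 3, against 4 in DESeq2. Mitochondrial ribosomal proteins followed, with 31 of 77 lower and 1 higher and a median of -0.77. MRPS34 (-1.26, SE 0.17) and MRPL4 (-1.41, SE 0.20) were among those that fell. MRPL51, of the large subunit, rose (0.71, SE 0.18) and was no longer called without EV 100K library 1, or EV 10K library 2 or 3 (adjusted p = 0.0509 to 0.0563) in edgeR. Without EV 100K replicate 1, or with the EV 2.8K libraries in the fit, 20 members of this list were lower. Its higher members numbered 0 to 4 across the alternatives.

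Cytosolic ribosomal proteins fell more often than all genes, and rose at a share below that of all genes. Of 79 genes, 28 fell (35.4%, against 11.3% of all genes) and 5 rose (6.33%, against 8.62%), and the median was -0.32. RPLP2, an acidic protein of the ribosomal stalk, was at 835, 776 and 715 CPM across EV 100K and 1796, 2213 and 1774 CPM across EV 10K (log2 fold change -1.31, SE 0.16, edgeR adjusted p = 0.000145). The large-subunit gene RPL23A (-1.38, SE 0.16) fell in a similar way, again without overlap between groups. RPL37 went the other way, at 1313, 822 and 884 CPM across EV 100K and 552, 417 and 337 CPM across EV 10K (log2 fold change 1.21, SE 0.22, edgeR adjusted p = 0.00188). RPS6, a small-subunit protein phosphorylated in growth signalling, was at 8471, 6234 and 6302 CPM across EV 100K and 4442, 4017 and 3331 CPM across EV 10K (log2 fold change 0.83, SE 0.19, edgeR adjusted p = 0.00695). Both rose without overlap between groups. RPL23 (0.91, SE 0.19), RPS27A (0.86, SE 0.20) and RPS3A (0.58, SE 0.16) rose as well, and RPS3A was no longer called without EV 100K library 1 or 3, or EV 10K library 3 and in the fit on 9 EV libraries and the fit on 10 libraries (adjusted p = 0.0524 to 0.0868) in edgeR. These genes have many processed pseudogenes, so their counts are uncertain where reads fit several copies. Of 511 processed pseudogenes tested, 51 were lower (9.98%, against 11.3%) and 15 higher (2.94%, against 8.62%). The lower ribosomal protein genes numbered 16 without EV 100K replicate 3, 18 without EV 100K replicate 2, 18 without EV 10K replicate 2 and 17 with all 10 libraries in the fit.

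The rest of the translation machinery was lower or did not pass. Of 46 translation factors 19 fell and 0 rose in edgeR, and of 23 aminoacyl-tRNA synthetases, which load amino acids onto tRNA, 14 fell and 0 rose. The medians were -0.47 and -0.72. EIF3I, a subunit of the initiation factor that binds the small ribosomal subunit, was at 38.7, 40.9 and 40.0 CPM across EV 100K and 129, 135 and 182 CPM across EV 10K (log2 fold change -1.90, SE 0.20, edgeR adjusted p = 5.07e-05). EIF3G (-1.65, SE 0.18), the translationally controlled TPT1 (-1.38, SE 0.16), and the synthetases SARS1 (-1.37, SE 0.18) and TARS1 (-1.18, SE 0.16) fell too. Lower synthetases numbered 9 without EV 100K replicate 1, 8 without EV 100K replicate 2 or 3, 8 with all 10 libraries and 7 with the 9 EV libraries in the fit.

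Genes of the proteasome and of the spliceosome were lower in more than 50% of their tested members. Of 42 proteasome genes 22 fell and 1 rose, with a median of -0.79, and of 41 protein genes of the spliceosomal snRNPs 24 fell and 0 rose in edgeR, with a median of -0.86. PSMC4, an ATPase of the proteasome's base, was at 21.7, 24.6 and 29.7 CPM across EV 100K and 118, 109 and 111 CPM across EV 10K (log2 fold change -2.15, SE 0.21, edgeR adjusted p = 3.41e-05). Its partner ATPase PSMC6 was the gene that rose, at 647, 442 and 523 CPM across EV 100K and 302, 311 and 227 CPM across EV 10K (log2 fold change 0.94, SE 0.19, edgeR adjusted p = 0.00324). Neither gene's groups overlapped, so subunits of 1 ring stood apart in opposite directions. PRPF31, a U4/U6 snRNP protein, fell (-1.86, SE 0.18), as did PSMD8 (-2.10, SE 0.23) and SNRNP25 (-1.86, SE 0.22). Of 37 hnRNP and SR proteins, which coat and splice pre-mRNA, 10 fell (27.0%, against 11.3%) and 3 rose (8.11%, against 8.62%). HNRNPC fell (-0.83, SE 0.16) and SYNCRIP, an hnRNP, rose (0.87, SE 0.19). HNRNPA3 rose (0.77, SE 0.19) and was no longer called without EV 10K library 2 or 3 (adjusted p = 0.0545 to 0.0568) in edgeR. The higher genes of this list numbered 1 without EV 10K library 2 and 1 without EV 10K library 3.

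Replication-dependent histone mRNAs end in a stem-loop in place of a poly(A) tail. Of 44 tested, 6 rose, 6 fell and 32 did not pass, with a median of -0.20. The shares, 13.6% each against 8.62% and 11.3%, are not far from those of all genes. H3C13, a histone H3 gene, was at 133, 169 and 158 CPM across EV 100K and 55.7, 91.5 and 61.1 CPM across EV 10K (log2 fold change 1.15, SE 0.21, edgeR adjusted p = 0.00216). H2BC12, a histone H2B gene, was at 108, 152 and 116 CPM across EV 100K and 240.1, 302 and 253 CPM across EV 10K (log2 fold change -1.08, SE 0.18, edgeR adjusted p = 0.00108). The groups were separate in both, with EV 100K above for H3C13 and below for H2BC12. H4C5 (0.93, SE 0.19) rose and the linker histone gene H1-2 (-0.70, SE 0.16) fell. Leaving out an EV 100K replicate, or EV 10K replicate 3, changed the counts to 2 or 3 higher and, except without EV 100K replicate 2, 2 or 3 lower. Histone genes are clustered and near-identical, so these counts carry the same uncertainty as the ribosomal protein genes.

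**Figure D3:**
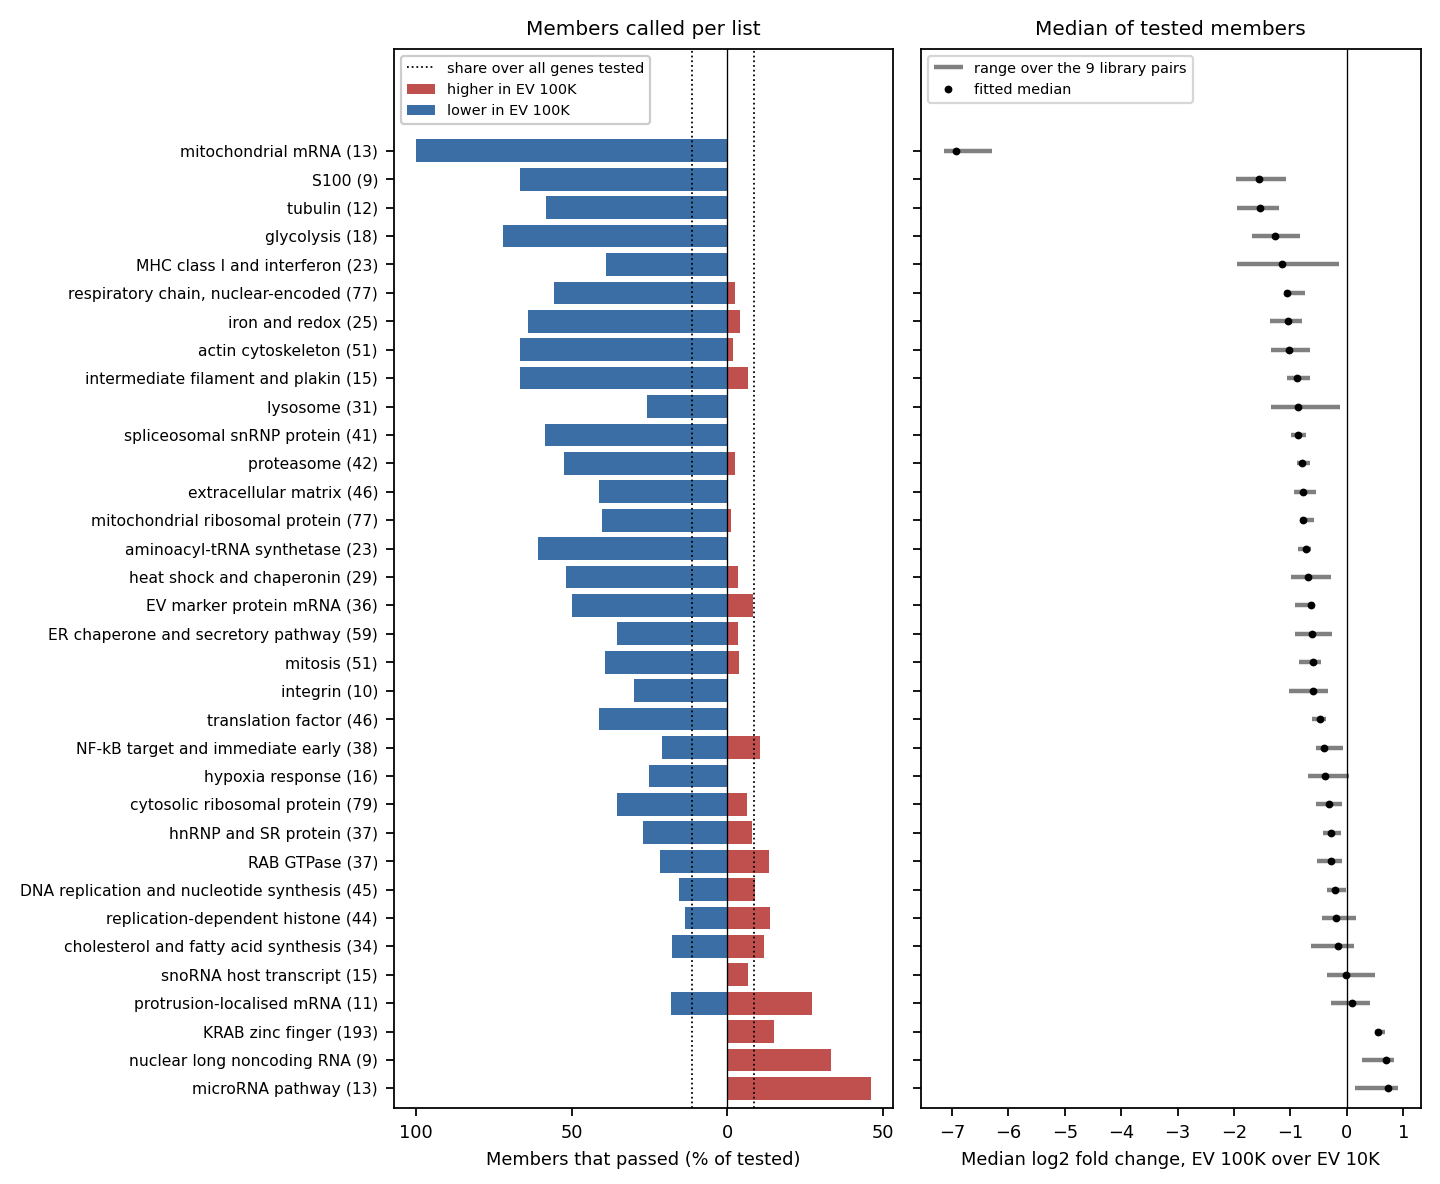
For each gene list with at least 9 tested members (number in brackets), bars show the percentage of tested members that passed, higher in red to the right and lower in blue to the left, with dotted lines at 8.62% and 11.3% for all genes tested; the right panel gives the median log2 fold change as a dot and its range over the 9 library pairs as a line. Lists from S100 to translation factors lie below 0 in all 9 pairs, and KRAB zinc finger, nuclear long noncoding RNA and microRNA pathway genes lie above 0 in all 9.

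Where edgeR called 0 members of a list in a direction, the count at an unadjusted p below 0.05 was 2 for higher translation factors, and 1 each for higher snRNP protein, matrix, lysosomal and hypoxia genes, lower snoRNA host transcripts and lower microRNA pathway genes, and it was 0 for the other lists in the plot of list members. DESeq2 called 1 higher snRNP protein gene, 1 higher hypoxia gene and 1 lower host transcript, and limma voom the first and the last of these kinds, with 1 gene each. Without EV 10K replicate 1, edgeR called 1 higher gene in each of the snRNP protein, glycolysis, matrix, lysosomal and hypoxia lists and 1 lower host transcript.

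The actin cytoskeleton, which shapes the cell cortex and drives motility, was among the groups with the most lower members. Of 51 genes 34 fell (66.7%) and 1 rose, with a median of -1.02 (-1.34 to -0.66 over the library pairs). MYL12B, a regulatory myosin light chain, was at 45.7, 48.8 and 51.9 CPM across EV 100K and 231, 314 and 319 CPM across EV 10K. No EV 100K library reached 25% of the lowest EV 10K library, and the gene fell 5.91-fold (log2 fold change -2.56, SE 0.18, edgeR adjusted p = 2.64e-06). ACTB, or beta-actin, was at 574, 891 and 827 CPM across EV 100K and 2842, 3059 and 3602 CPM across EV 10K (log2 fold change -2.05, SE 0.20, edgeR adjusted p = 3.22e-05). The thymosin TMSB10 (-2.23, SE 0.17) and cofilin CFL1 (-1.95, SE 0.17), which bind actin monomers and cut filaments, respectively, fell likewise. ARPC1A, of the ARP2/3 complex that branches filaments, was the 1 gene that rose (0.79, SE 0.17). Tubulins, the subunits of microtubules, fell in 7 of 12 genes and rose in none by edgeR, with TUBB (-1.56, SE 0.21), TUBB4B (-1.47, SE 0.19) and the nucleating TUBG1 (-1.93, SE 0.24) as examples. Of 15 intermediate filament and plakin genes 10 fell, among them the lamin LMNA (-1.73, SE 0.16).

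Genes that mark PC3 cells were lower as well: 5 of the 6 epithelial and PC3 identity genes fell. KRT18, a keratin of simple epithelia, was at 153, 138 and 142 CPM across EV 100K and 436, 430.3 and 515 CPM across EV 10K (log2 fold change -1.68, SE 0.16, edgeR adjusted p = 2.41e-05). KRT8, its partner in filaments, was at -1.26 (SE 0.15) and VIM, vimentin, at -1.74 (SE 0.23). The summed level of the 6 genes was 868 to 1054 CPM in EV 100K and 1880 to 2447 CPM in EV 10K, with no overlap. Without EV 10K replicate 2, 3 of the 6 fell. KRT19 (-0.67, SE 0.18) and CAV1 (-1.47, SE 0.35) fell by less or with less certainty: KRT19 was no longer called without EV 100K library 1 or 3, or EV 10K library 2 or 3 (adjusted p = 0.066 to 0.0908), and CAV1 was no longer called without EV 10K library 2 (adjusted p = 0.0562), both in edgeR. DSP, or desmoplakin, which anchors keratin at desmosomes, was the 1 plakin gene that rose (0.59, SE 0.18). DSP was no longer called without EV 100K library 3, or EV 10K library 2 or 3 and in the fit on 9 EV libraries (adjusted p = 0.0641 to 0.217) in edgeR.

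Glycolysis, the pathway from glucose to pyruvate, fell in 13 of 18 genes and rose in none by edgeR, with a median of -1.28. GAPDH was at 478, 760.0 and 622 CPM across EV 100K and 1936, 2623 and 2582 CPM across EV 10K (log2 fold change -1.94, SE 0.20, edgeR adjusted p = 5e-05). The pyruvate kinase PKM (-1.97, SE 0.20) and the triosephosphate isomerase TPI1 (-1.76, SE 0.18) fell by similar amounts. Both GAPDH and ACTB are often used to scale expression data, and here they were 3.84-fold and 4.15-fold lower in EV 100K. The small calcium-binding S100 proteins fell in 6 of 9 genes, led by S100A11 (-2.67, SE 0.27) and S100A10 (-2.03, SE 0.20), with S100A6, the most abundant of these 3 in CPM, at 437, 545 and 628 CPM across EV 100K and 1609, 1869.8 and 2121 CPM across EV 10K (log2 fold change -1.80, SE 0.18, edgeR adjusted p = 4.25e-05).

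Genes of the chaperones and the secretory pathway of the endoplasmic reticulum (ER), where secreted and membrane proteins are made, were lower more often than higher. Of 59 tested 21 fell and 2 rose, with a median of -0.61. The 2 higher calls, OSTC and CRELD2, did not last: 0 genes were higher without EV 100K library 1, 2 or 3, without EV 10K library 3 and with the 9 EV libraries in the fit, and 1 without EV 10K library 1 or 2. SRP14, a cytosolic protein of the particle that brings ribosomes to the ER, was at 100.4, 117 and 91.6 CPM across EV 100K and 526, 478 and 624 CPM across EV 10K (log2 fold change -2.40, SE 0.17, edgeR adjusted p = 2.84e-06). The calcium-binding chaperone CALR was at 235, 282 and 298 CPM across EV 100K and 827, 1275 and 1122 CPM across EV 10K (log2 fold change -1.99, SE 0.19, edgeR adjusted p = 3.22e-05). EV 100K lay below EV 10K in every library for both. HSP90B1 (-1.72, SE 0.17) also fell. Extracellular matrix genes, whose proteins pass through the ER, fell in 19 of 46 and rose in none by edgeR. COL6A2, a collagen VI chain, was at 149, 158 and 148 CPM across EV 100K and 642, 512 and 544 CPM across EV 10K (log2 fold change -1.90, SE 0.16, edgeR adjusted p = 9.69e-06). The protease inhibitor TIMP1 (-2.48, SE 0.22) and the galectin LGALS1 (-1.99, SE 0.19) fell, and so did the glycoproteins FN1 (-1.98, SE 0.30) and THBS1 (-1.67, SE 0.30), which were chosen after their values were seen. The lower matrix genes numbered 11 without EV 100K replicate 1 and 12 without EV 100K replicate 3, and with the EV 2.8K libraries in the fit 11. Integrins, the receptors for matrix, fell in 3 of 10 genes (30%, against 11.3%). These were ITGA5 (-1.87, SE 0.52), ITGA3 (-1.18, SE 0.21) and ITGB4 (-1.15, SE 0.27). ITGA5 was no longer called without EV 100K library 1 or 2, or EV 10K library 2 or 3 (adjusted p = 0.0501 to 0.103) and ITGB4 was no longer called without EV 100K library 1 or 2 (adjusted p = 0.055 to 0.0551), both in edgeR, so that 1 integrin gene was lower without EV 100K library 1 and 1 without EV 100K library 2.

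Lysosomal, interferon and redox genes went the same way. Of 31 lysosomal genes 8 fell (25.8%, against 11.3%), led by the progranulin gene GRN (-2.17, SE 0.22). Of 23 MHC class I and interferon genes 9 fell (39.1%, against 11.3%). ISG15, a ubiquitin-like protein, was at 39.5, 65.8 and 68.9 CPM across EV 100K and 139.9, 254 and 303 CPM across EV 10K (log2 fold change -2.001, SE 0.28, edgeR adjusted p = 0.00036). The EV 10K libraries differed among themselves, and all lay above EV 100K. The medians of these 2 lists, -0.86 and -1.15, ranged widely over the library pairs, from -1.35 to -0.13 and from -1.95 to -0.15. Lower lysosomal genes numbered 6 without EV 100K library 1 or 2 or EV 10K library 2 or 3. They numbered 7 without EV 100K library 3 and 15 without EV 10K library 1. Lower interferon genes numbered 5 without EV 100K library 1, 5 without EV 10K library 3 and 4 without EV 10K library 2. Iron and redox genes fell in 16 of 25, with the ferritin heavy chain FTH1 at 1063, 1077 and 938 CPM across EV 100K and 2438, 4636 and 3326 CPM across EV 10K (log2 fold change -1.76, SE 0.22, edgeR adjusted p = 0.000147). The quinone reductase NQO1 (-1.997, SE 0.22) and the glutathione transferase GSTP1 (-1.98, SE 0.21) fell, while IREB2, the iron sensor that binds ferritin mRNA, rose (0.93, SE 0.26). IREB2 was no longer called without EV 100K library 1 or 3, or EV 10K library 3 and in the fit on 9 EV libraries and the fit on 10 libraries (adjusted p = 0.0529 to 0.19) in edgeR. Without EV 100K replicate 3, 10 genes of this list fell.

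The mRNAs of proteins used as vesicle markers fell more often than all genes. Of 36 tested, 18 fell (50%, against 11.3%) and 3 rose (8.33%, against 8.62%), with a median of -0.63. These are mRNA levels and say nothing of the proteins on the vesicles. CD9, a tetraspanin of the plasma membrane, was at 5.92, 6.67 and 5.63 CPM across EV 100K and 33.0, 84.4 and 54.4 CPM across EV 10K and fell 9.41-fold (log2 fold change -3.23, SE 0.37, edgeR adjusted p = 9.12e-05). CD63, the tetraspanin of late endosomes, was at 295, 264 and 295 CPM across EV 100K and 184, 286 and 249.9 CPM across EV 10K and did not pass (log2 fold change 0.25, SE 0.18, edgeR adjusted p = 0.391). The CD63 values overlapped between groups while those of CD9 were far apart. CD81 (-1.18, SE 0.31) and CD151 (-1.94, SE 0.23), also tetraspanins, and the annexin ANXA1 (-2.09, SE 0.24) fell. CD81 was no longer called without EV 100K library 1 or 3, or EV 10K library 2 (adjusted p = 0.0658 to 0.078) in edgeR. Among the 3 genes that rose were 2 of the ESCRT-I and ESCRT-II complexes, which sort cargo into multivesicular endosomes. VPS25 was at 399, 366 and 258 CPM across EV 100K and 165, 142 and 98.0 CPM across EV 10K (log2 fold change 1.34, SE 0.22, edgeR adjusted p = 0.000936). VPS37B rose by a like amount (1.35, SE 0.22). TSPAN6, the third, rose (0.75, SE 0.21) and was no longer called without EV 100K library 1 and in the fit on 9 EV libraries and the fit on 10 libraries (adjusted p = 0.113 to 0.147) in edgeR.

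RAB GTPases, the switches of vesicle traffic, were split, with 5 of 37 higher (13.5%, against 8.62%) and 8 lower (21.6%, against 11.3%). RAB27A, which docks multivesicular endosomes at the plasma membrane for exosome release, was at 62.1, 54.8 and 41.8 CPM across EV 100K and 19.04, 23.2 and 11.9 CPM across EV 10K (log2 fold change 1.56, SE 0.31, edgeR adjusted p = 0.00317). RAB4A, of early endosome recycling, was at 526, 405 and 378 CPM across EV 100K and 269, 209 and 152 CPM across EV 10K (log2 fold change 1.06, SE 0.21, edgeR adjusted p = 0.00341). EV 100K was above EV 10K in every library for both. RAB8A (-1.10, SE 0.17) and RAB10 (-1.12, SE 0.18), which act between the Golgi and the cell surface, fell. Higher RAB genes numbered 2 without EV 100K replicate 1 or 2 and 3 without EV 100K replicate 3.

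The most abundant mRNAs of both pellets include transcripts that migrating cells place in their protrusions. NET1, a guanine nucleotide exchange factor, was at 15953, 14555 and 16034 CPM across EV 100K and 18878, 14666 and 16498 CPM across EV 10K and KIF1C, a kinesin, at 26645, 21714 and 24194 CPM across EV 100K and 19522, 12752 and 16131 CPM across EV 10K. NET1 overlapped between groups (log2 fold change -0.10, SE 0.18, edgeR adjusted p = 0.75). KIF1C did not overlap but missed the threshold (log2 fold change 0.58, SE 0.20, edgeR adjusted p = 0.0543); it passed in 7 of 16 alternatives, such as DESeq2 (adjusted p = 0.00205) and edgeR without EV 10K replicate 1 (0.0209). RAB13, of the same class, was at 1525, 1052 and 1346 CPM across EV 100K and 3391, 2471 and 2859.5 CPM across EV 10K and fell (log2 fold change -1.15, SE 0.19, edgeR adjusted p = 0.000928). Of the 11 protrusion-localised mRNAs tested, 3 rose (27.3%, against 8.62%) and 2 fell (18.2%, against 11.3%), with a median of 0.08. RASSF3 was at 7747, 5900.0 and 7001 CPM across EV 100K and 4459, 2983 and 3492 CPM across EV 10K (log2 fold change 0.92, SE 0.19, edgeR adjusted p = 0.00449). ARHGAP11A rose (0.88, SE 0.22) and was no longer called without EV 10K library 2 or 3 (adjusted p = 0.0629 to 0.0701) in edgeR, DYNLL2 rose (0.75, SE 0.18) and was no longer called in the fit on 9 EV libraries (adjusted p = 0.102) in edgeR, and CYB5R3 fell (-1.82, SE 0.34).

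**Figure D4:**
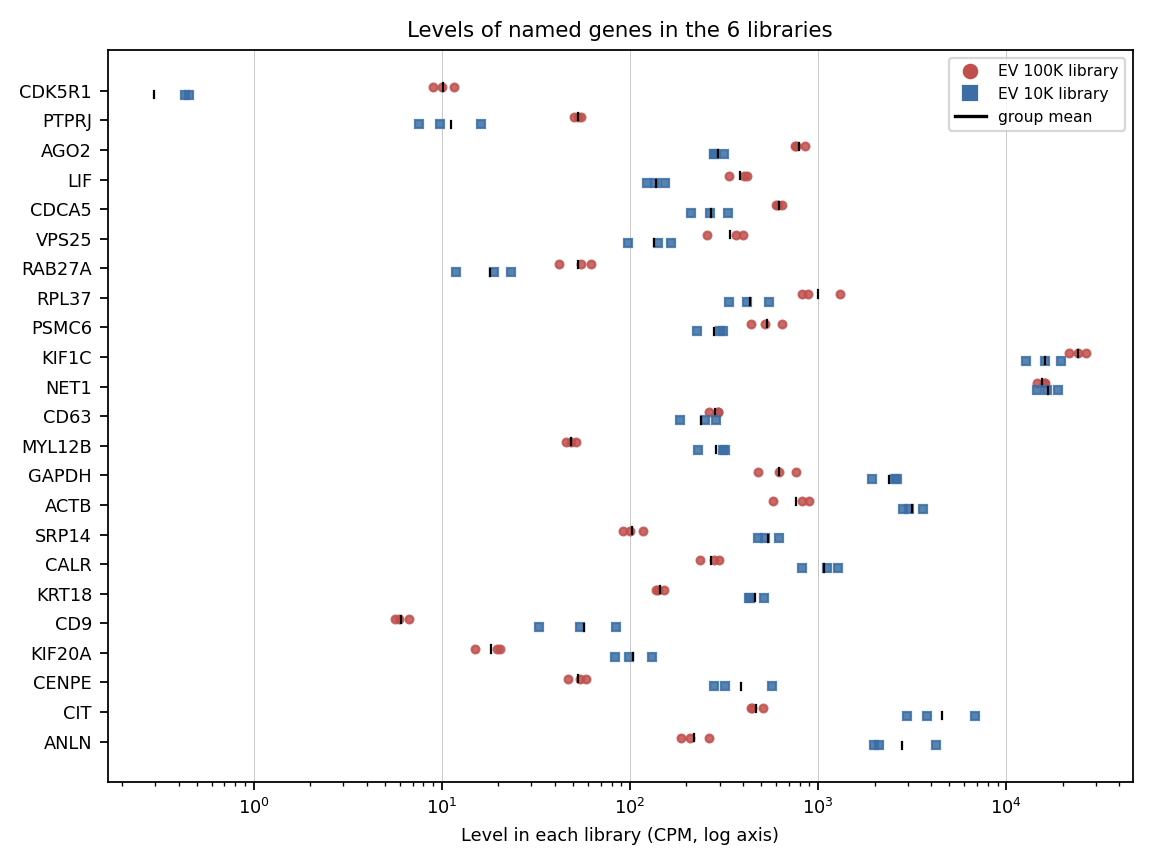
Levels of 23 named genes in each of the 6 libraries in CPM on a log axis, with EV 100K libraries as red circles, EV 10K libraries as blue squares and group means as black ticks; a value of 0 CPM (CDK5R1 in EV 10K replicate 2) is not drawn. Genes from CDK5R1 to PSMC6 are higher and genes from MYL12B to ANLN lower in EV 100K without overlap, while NET1 and CD63 overlap.

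Genes of NF-κB signalling and the immediate early response include unstable mRNAs of feedback inhibitors and cytokines. Of 38 tested, 8 fell (21.1%, against 11.3%) and 4 rose (10.5%, against 8.62%), or 2 with the 9 EV libraries in the fit. LIF, an interleukin-6 family cytokine, was at 336, 417 and 404 CPM across EV 100K and 136, 154 and 123 CPM across EV 10K (log2 fold change 1.49, SE 0.16, edgeR adjusted p = 7.12e-05). NFKBIA, the inhibitor of NF-κB, was at 21.7, 20.2 and 18.2 CPM across EV 100K and 102, 59.6 and 57.5 CPM across EV 10K (log2 fold change -1.86, SE 0.28, edgeR adjusted p = 0.000523). The groups were separate in both, and the 2 genes went opposite ways. SOD2, the mitochondrial superoxide dismutase, rose (0.90, SE 0.17), while JUNB (-1.75, SE 0.32) and the phosphatase DUSP1 (-2.20, SE 0.41) fell. ARC, an immediate early gene of neurons whose protein forms capsid-like shells around RNA, had 10 counts in EV 100K and 447 in EV 10K. ARC was at 0.526, 1.05 and 0 CPM across EV 100K and 10.4, 16.8 and 19.4 CPM across EV 10K, and fell with a log2 fold change of -4.87 (SE 0.86), or -5.74 without EV 100K replicate 2 and -4.29 without EV 100K replicate 3.

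Of 29 heat shock and chaperonin genes 15 fell, such as HSP90AB1 (-1.69, SE 0.17) and HSPB1 (-2.15, SE 0.23), and 1, the chaperonin subunit CCT6A, rose (0.59, SE 0.16). CCT6A was no longer called without EV 100K library 1, or EV 10K library 2 or 3 (adjusted p = 0.0549 to 0.0646) in edgeR. Cholesterol and fatty acid synthesis passed at shares not far from those of all genes, with 4 of 34 higher (11.8%, against 8.62%) and 6 lower (17.6%, against 11.3%). INSIG1, which holds the sterol sensor in the ER, was at 78.8, 82.7 and 103 CPM across EV 100K and 52.1, 42.2 and 37.2 CPM across EV 10K (log2 fold change 1.01, SE 0.22, edgeR adjusted p = 0.00552). It and the carboxylase ACACA (0.71, SE 0.16) rose, while the fatty acid synthase FASN (-1.09, SE 0.20) and the squalene synthase FDFT1 (-1.62, SE 0.30) fell. INSIG1 was no longer called in the fit on 9 EV libraries (adjusted p = 0.08) and ACACA was no longer called in the fit on 9 EV libraries and the fit on 10 libraries (adjusted p = 0.0517 to 0.0681), both in edgeR. The lower genes of this list numbered 3 in each of the fits without EV 100K library 1, EV 100K library 2 and EV 10K library 2, and 3 with the 9 EV libraries or all 10 in the fit. Higher genes numbered 2 without EV 100K library 1, 2 without EV 100K library 3, 1 with all 10 libraries and 0 with the 9 EV libraries.

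Of 51 mitosis genes 20 fell and 2 rose, with a median of -0.60. ANLN, or anillin, a scaffold of the contractile ring, was at 263, 209.8 and 188 CPM across EV 100K and 4250.2, 1976 and 2112 CPM across EV 10K. It fell 12.6-fold (log2 fold change -3.66, SE 0.29, edgeR adjusted p = 6.52e-06). CIT, the citron kinase of the midbody, the bridge between daughter cells before they part, which was in no list and was chosen after its values were seen, was at 508, 441 and 448 CPM across EV 100K and 6872, 2973 and 3815 CPM across EV 10K and fell 9.77-fold (log2 fold change -3.29, SE 0.28, edgeR adjusted p = 1.01e-05). In both genes EV 10K replicate 1 was the highest, and all EV 10K libraries lay far above EV 100K. The kinesins CENPE (-2.87, SE 0.25), of the kinetochore, and KIF20A (-2.51, SE 0.25), of the central spindle, fell too. CDCA5, or sororin, which protects sister chromatid cohesion, was at 645, 597 and 615 CPM across EV 100K and 334, 267 and 211 CPM across EV 10K and rose (log2 fold change 1.19, SE 0.18, edgeR adjusted p = 0.000571). BIRC5, or survivin, of the chromosomal passenger complex, rose by less (0.55, SE 0.17). BIRC5 was no longer called without EV 100K library 1 or 3, or EV 10K library 2 or 3 and in the fit on 9 EV libraries and the fit on 10 libraries (adjusted p = 0.0656 to 0.131) in edgeR. Higher mitosis genes numbered 1 without EV 100K library 1 or 3 and 1 without EV 10K library 2 or 3. Lower mitosis genes numbered 13 without EV 100K replicate 1, 13 without EV 100K replicate 3 and 12 with the EV 2.8K libraries in the fit. Context values, scaled over all 10 libraries, put ANLN at 1283 ± 430 CPM in EV 2.8K (SD, n = 3) and 206 CPM in the cell library, and CIT at 1972 ± 793 and 144 CPM.

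DNA replication genes passed at shares near those of all genes, with 7 of 45 lower (15.6%, against 11.3%), 4 higher (8.89%, against 8.62%) and a median of -0.21. PCNA, the sliding clamp of DNA polymerase, was at 31.2, 25.8 and 18.2 CPM across EV 100K and 59.6, 74.4 and 86.9 CPM across EV 10K (log2 fold change -1.55, SE 0.27, edgeR adjusted p = 0.00126). The thymidine kinase TK1 fell (-2.10, SE 0.34). GINS1, of the replicative helicase, was at 125, 125 and 116 CPM across EV 100K and 81.1, 64.9 and 57.3 CPM across EV 10K and rose (log2 fold change 0.85, SE 0.19, edgeR adjusted p = 0.00678). Lower genes numbered 4 without EV 100K replicate 1, 3 without EV 100K replicate 2 or 3, and 3 with the 9 EV libraries or all 10 in the fit. Higher genes numbered 1 without EV 100K library 1, 2 without EV 100K library 2, 2 without EV 10K library 2 or 3, 2 with the 9 EV libraries and 1 with all 10.

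The microRNA pathway had the highest list median. MicroRNAs are cut from hairpins by DGCR8 with Drosha and by Dicer, and then guide Argonaute proteins, which silence mRNAs together with TNRC6 proteins. Of 13 genes of this pathway 6 rose (46.2%) and 0 fell in edgeR, with a median log2 fold change of 0.73 and 0.15 to 0.91 over the 9 library pairs. AGO2, the Argonaute that can cleave its target, was at 758, 762 and 856 CPM across EV 100K and 282, 279.9 and 316 CPM across EV 10K. The lowest EV 100K library was more than 2-fold above the highest EV 10K library (log2 fold change 1.44, SE 0.15, edgeR adjusted p = 5.09e-05). DICER1 was at 122, 104 and 99.5 CPM across EV 100K and 64.8, 30.1 and 33.4 CPM across EV 10K (log2 fold change 1.34, SE 0.28, edgeR adjusted p = 0.00397). TNRC6B (0.86, SE 0.19) rose, as did AGO1 (0.80, SE 0.20), TNRC6A (0.73, SE 0.19) and DGCR8 (0.99, SE 0.28), the last 3 chosen after their values were seen. TNRC6B was no longer called without EV 100K library 3 (adjusted p = 0.0555), AGO1 was no longer called without EV 100K library 3, or EV 10K library 2 (adjusted p = 0.0536 to 0.0551), TNRC6A was no longer called without EV 100K library 1 or 3, or EV 10K library 2 or 3 (adjusted p = 0.0517 to 0.0666) and DGCR8 was no longer called without EV 100K library 1 or 2, or EV 10K library 2 or 3 and in the fit on 9 EV libraries (adjusted p = 0.0689 to 0.143), all in edgeR. The count was 3 without EV 100K replicate 3 and 3 without EV 10K replicate 2. These are long mRNAs, with a median of 8438 bases for the longest coding transcript, and the part of length in this difference was not tested. AGO2 was at 273 ± 30.9 CPM in EV 2.8K and 234 CPM in the cell library, on the scale of all 10 libraries.

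KRAB zinc finger genes, a large family of DNA-binding repressors of transposons, rose in 29 of 193 tested (15.03%) and fell in 0 by edgeR. The median was 0.56, and it lay between 0.50 and 0.67 in the 9 library pairs. ZNF430 was at 92.5, 81.8 and 76.2 CPM across EV 100K and 33.2, 38.3 and 30.8 CPM across EV 10K (log2 fold change 1.29, SE 0.21, edgeR adjusted p = 0.000985). ZNF197 rose (1.19, SE 0.25), and ZNF805 rose (1.604, SE 0.35) but was no longer called without EV 100K library 3 (adjusted p = 0.0528) in edgeR. The count of risers depends on which libraries enter: it was 13 without EV 100K replicate 1, 13 without EV 100K replicate 2, 5 without EV 100K replicate 3, 10 with the EV 2.8K libraries and 13 with all 10 libraries in the fit, and 0 members fell in any of these. Genes of this family are similar in sequence, so reads may be shared.

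Entries of the long noncoding RNA catalogue in the table passed in either direction at shares below those of all genes. Of 1510 tested, 99 rose (6.56%, against 8.62%) and 8 fell (0.530%, against 11.3%), with a median of 0.45. NORAD, a cytoplasmic RNA that binds Pumilio proteins, was at 239.6, 247 and 338 CPM across EV 100K and 135, 146 and 142 CPM across EV 10K (log2 fold change 0.96, SE 0.17, edgeR adjusted p = 0.00181). Of 9 tested members of the list named nuclear long noncoding RNA, 3 rose (33.3%, against 8.62%). These were PVT1 (0.92, SE 0.21), OIP5-AS1 (0.77, SE 0.22) and TUG1 (0.70, SE 0.23). The list name does not fix where these RNAs lie in the cell, and their location was not measured here. OIP5-AS1 was no longer called without EV 100K library 3, or EV 10K library 1 or 2 and in the fit on 9 EV libraries (adjusted p = 0.0524 to 0.166) and TUG1 was no longer called without EV 100K library 1, 2 or 3, or EV 10K library 1 or 2 and in the fit without TMM factors, the fit without mitochondrially encoded genes and lnc-ARF6-1, the fit on 9 EV libraries and the fit on 10 libraries (adjusted p = 0.05002 to 0.146), by edgeR or the tool named. The count of 3 was 1 without EV 100K library 3, EV 10K library 1 or EV 10K library 2 and with the 9 EV libraries in the fit, and 5 with no filter on low counts. MALAT1, which stays in nuclear speckles, was at 2873, 1325 and 1659.8 CPM across EV 100K and 1666, 1298 and 1065 CPM across EV 10K, with overlapping groups (log2 fold change 0.54, SE 0.26, edgeR adjusted p = 0.171). It passed in 2 of 16 alternatives, with no filter on low counts (edgeR adjusted p = 0.00885) and with the replicate number as a block, and its log2 fold change was 0.16 without EV 100K replicate 1. The paraspeckle RNA NEAT1 did not pass (log2 fold change 0.29, SE 0.17, edgeR adjusted p = 0.278). The catalogue's other entries beside lnc-ARF6-1 took 2.605 ± 0.141% of counts in EV 100K against 1.79 ± 0.116% in EV 10K (SD over 3 libraries each; exact two-sided permutation p = 0.1, the smallest that 3 against 3 allows).

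Among called genes with at least 10 CPM in EV 100K, without catalogue entries, clone names and pseudogenes, the highest ratios were mostly at low levels. Higher ratios below that level were left out, such as MIR4664 at 7.48 with 0 counts in EV 10K. CDK5R1, the activator of the kinase CDK5, was at 8.95, 10.0 and 11.6 CPM across EV 100K and 0.433, 0 and 0.456 CPM across EV 10K. It had 201 counts in EV 100K and 9 in EV 10K (log2 fold change 4.99, SE 1.01, edgeR adjusted p = 0.00364) and was no longer called in the fit on 9 EV libraries and limma voom (adjusted p = 0.0716 to 0.104). The sialyltransferase ST3GAL6 (2.65, SE 0.54), the sodium-calcium exchanger SLC8A1 (2.34, SE 0.47) and the receptor phosphatase PTPRJ rose too. PTPRJ was at 53.3, 50.6 and 55.2 CPM across EV 100K and 16.1, 7.54 and 9.76 CPM across EV 10K, with tight EV 100K values and no overlap (log2 fold change 2.25, SE 0.32, edgeR adjusted p = 0.00038).

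Across protein-coding genes of the nucleus, the direction of the difference went with transcript length. The 11397 genes with a coding transcript in GENCODE release 29 were split into quintiles (5 equal groups) by the length of their longest one. Genes with transcripts of 312 to 2082 bases had a median log2 fold change of -0.62, and those of 6005 to 109224 bases a median of 0.38. The quintiles between them were at -0.25, -0.03 and 0.16, in order of length. In the shortest quintile 28.0% of genes were lower and 2.54% higher, and in the longest 3.64% were lower and 21.7% higher. The median was below 0 in all 9 library pairs for the 2 shortest quintiles and above 0 in all 9 for the 2 longest. Genes called higher had a median longest transcript of 5750 bases, genes called lower 2266, and all tested protein-coding genes 3595.

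The same order held in subsets and with other measures. The longest quintile stood 1.01 above the shortest on the log2 scale. It stood 1.09 above it among genes above the median of mean CPM, 0.88 among those below it, 0.82 for GC content below its median, 1.09 at or above it, and 0.94 among genes in none of the lists. With the median coding transcript of GENCODE's basic set in place of the longest, the difference was 0.87. Splitting by 3′ untranslated length gave medians from -0.46 to 0.38 and by coding length from -0.36 to 0.22, while splitting by mean CPM gave -0.06, -0.11, -0.08, -0.01 and 0.08. By GC content the quintiles went from 0.07 at the lowest to -0.28 at the highest. As a description across genes, which are not independent replicates, Spearman's correlation with the log2 fold change was 0.39 for transcript length, 0.33 for 3′ untranslated length, 0.22 for coding length, -0.13 for GC content and 0.02 for mean CPM. The sources used here give no fragment lengths and no RNA integrity values, and the part of RNA quality in this pattern was not tested.

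**Figure D5:**
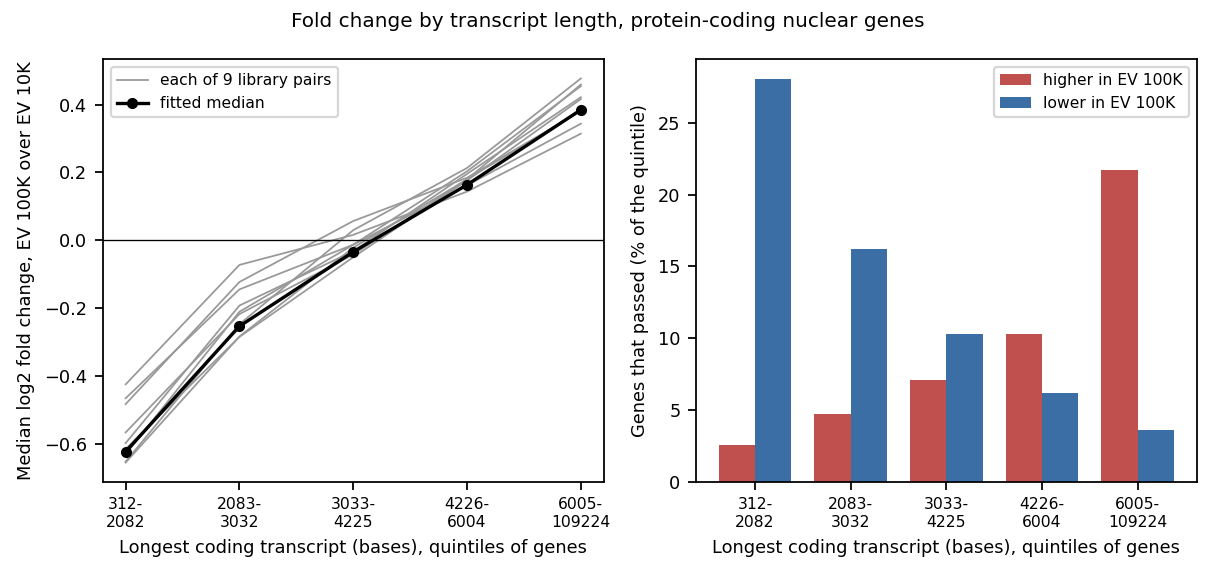
Left, the median log2 fold change of EV 100K over EV 10K in quintiles of protein-coding nuclear genes by the length of the longest coding transcript in bases, for each of the 9 library pairs (grey) and for the fit (black); right, the percentage of genes in each quintile that passed, higher in red and lower in blue. All 9 lines rise from the shortest to the longest quintile.

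The median of a list can be set beside that of the quintile that holds its median length, though members were not compared with genes matched on length. The actin genes, with a median longest transcript of 3096 bases, had a median of -1.02 (-1.34 to -0.66 over the library pairs), and all genes of 3033 to 4225 bases had -0.03 (-0.05 to 0.06). The KRAB zinc finger genes, with 4061 bases, were at 0.56 (0.50 to 0.67). The nuclear respiratory chain genes, with 1263 bases, were at -1.06 (-1.12 to -0.74), and the shortest quintile was at -0.62 (-0.65 to -0.42). The ribosomal protein genes, with 1171 bases, were at -0.32, and their range of -0.55 to -0.08 overlaps that of the shortest quintile. The part of length in these medians was not tested. Among single genes, the long CIT (8708 bases), CENPE (8612 bases) and FN1 (8905 bases) fell, and the short VPS25 (1101 bases) and NDUFAB1 (885 bases) rose. These genes were chosen for this contrast after their values were seen.

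More genes were detected in EV 100K at equal depth. With each library reduced to 5424964 counts by its expected value, genes with at least 5 counts numbered 15257 ± 201 for EV 100K against 14334 ± 209.8 for EV 10K (SD over 3 libraries each; exact two-sided permutation p = 0.1, the smallest possible), and the groups did not overlap. With at least 1 count the difference was 3187 genes.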

How the data were processed

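The authors deposited a table of raw counts per gene for 10 libraries. Per the submitters' processing notes, the tools were featureCounts 1.6.3, STAR 2.6.1d, cutadapt 2.7 and bcl2fastq 2.19.1.403, with GRCh38 as build. For annotation, strand, multi-mapping reads and duplicates, the settings were not given in the sources used here. Rows of the table numbered 94946, 45574 with gene IDs found in GENCODE release 29 and 49372 named after a long noncoding RNA catalogue. Samples were grouped by their titles. Counts of the 6 libraries were filtered with filterByExpr (minimum count 10), scaled by TMM and tested two-sided with edgeR's quasi-likelihood test (edgeR 4.0.16, limma 3.58.1, R 4.3.3), and p-values were adjusted by Benjamini-Hochberg over 13911 genes, with a threshold of 0.05. SE is the absolute log2 fold change divided by the square root of F. CPM values use TMM-scaled library sizes. Single values were compared by exact permutation (scipy 1.17.1), figures drawn with matplotlib 3.10.9, and DESeq2 1.42.0 and limma voom served as alternatives.

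The genes named come from a rule: the 12 highest and 12 lowest changes among called genes with at least 10 CPM in the higher group, up to 3 genes of smallest p each way from each list, all members of a direction with 5 or fewer called, and some fixed by name; the text gives a part of these, and some genes are not reported here. The 12 each way left out mitochondrially encoded genes, catalogue entries, and clone, LOC, LINC, antisense and pseudogene names. They also needed the same sign in all 3 same-numbered library pairs. The comparison, its lists and its tests were chosen with earlier results of these data known. Library pairs of a group differed by more than sampling noise (chi-square per degree of freedom 9.86 to 48.8), so each was counted as 1 sample. In simulated counts for this comparison (13327 genes), 16 of 100 genes given a 2-fold change, 48 of 100 given a 4-fold change and 0 unchanged genes were called.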

Additional observations from a re-analysis of the deposited data

How the results depend on the processing

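Across 16 alternatives, the count of 2777 called genes ranged from 1697 in a fit that added the EV 2.8K libraries (575 higher) to 3307 with DESeq2, apart from single libraries left out. In a fit on all 10 libraries 771 genes were higher. Without single libraries, called genes numbered 1695 to 3320, higher genes 658 to 1594 and lower genes 1023 to 1726. RLE size factors gave 1243 higher and 1538 lower, and no TMM factor 1153 and 1529. With the replicate number as a block 3276 genes were called, 1551 higher and 1725 lower. Same-numbered libraries had deviation correlations of 0.0456, 0.0412 and 0.0653, and differently numbered ones -0.0486 to 0.0002. Each library thus correlated best with its own number. The values were under the 0.1 set for use of a block, so the main fit was unpaired. That limit cannot decide whether the sets were paired. Of the 136 called genes followed in the text, 108 kept their call and direction in each alternative that tested them and 28 lost the call in at least 1. VTRNA1-1, at -0.15, reversed to 1.31 without EV 10K replicate 1 (edgeR adjusted p = 0.0112) and was at -0.60 without EV 10K replicate 3, its range without single libraries; the cause was not tested. The difference in detected genes at equal depth was 3187 at 1 count or more and 923 at 5 or more. The longest quintile of transcripts stood 0.945 to 1.10 above the shortest across the 16 alternatives, and 0.820 to 1.09 in measures and subsets added after seeing the data. Self-test recovery of 16 and 48 of 100 genes at 2-fold and 4-fold holds for the simulated setting. There, 100 genes were changed at each fold among 13327, while 2777 of 13911 genes were called in the data. Recovery therefore does not measure how many changes this comparison missed.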
